A study of Homo sapiens with 22 samples.

Results

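The 40 mitosis and spindle genes described here are the protein-coding genes that carry a human cell through G2 and division: entry kinases and cyclins, spindle checkpoint and kinetochore proteins, motors, the anaphase machinery and cytokinesis proteins. They were chosen by symbol, and all 40 were found among the 17165 genes of the deposited table of CPM values (a gene's read count scaled to a common library total). Polyadenylated RNA was sequenced from PC9, an established human lung adenocarcinoma line that grows on an activating deletion in EGFR, and from its derivatives. Gefitinib inhibits that receptor reversibly, and WZ4002 binds it covalently and was designed for receptors with a gatekeeper resistance mutation. The 22 libraries form 11 groups of 2. Parental cells received gefitinib, WZ4002 or vehicle. 2 further lines, PC9-GR2 (called GR2 here) and PC9-GR3 (GR3), received WZ4002 or vehicle. Cells labelled gefitinib-tolerant received gefitinib or vehicle, and cells labelled WZ4002-tolerant received WZ4002 or vehicle. Treatment lasted 24 h, with each inhibitor labelled as 1 mM. Whether millimolar was meant is uncertain. The labels do not say how the derivatives were obtained, whether each is 1 clone, or whether paired libraries are separate cultures. The p-values therefore reflect the scatter of these libraries alone, which may be technical.

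Cells enter mitosis when cyclin B binds and activates CDK1, and the spindle checkpoint then holds the anaphase-promoting complex (APC/C) inactive until every chromosome is attached. Most genes of this machinery are transcribed only late in the cycle. In resting cells the DREAM complex (RBL1 or RBL2 with E2F4, DP and MuvB proteins) holds them silent, and in G2 the factors FOXM1 and MYBL2 switch them on. Many of their promoters share a CCAAT box, bound by NF-Y, and a short element near the start site, the cell cycle homology region TTTGAA, bound by the MuvB protein LIN54. In EGFR-mutant lung cancer cells, loss of receptor signalling is known to stop the cycle in G1.

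Promoter windows were available from RefSeq (build GRCh38.p14, matched by symbol) for 33 of the 40 genes, in 40 windows of 250 bases before to 50 after a start site. Searched on both strands, TTTGAA stood in the windows of 24 of the 33 genes (72.7%), against 4961 of all 27305 genes with a window (18.2%). CCAAT stood in those of 27 of 33 (81.8%), against 39.7% of all genes. Both stood in the same window in 20 of 33 (60.6%), against 7.26% of all genes. Among the 11665 genes of the CPM table with a window, the shares were 14.1% for TTTGAA, 42.6% for CCAAT and 5.8% for both. These are shares of letters, not of bound sites, and the members were known mitotic genes when chosen. Among 34 DNA replication genes, 29 had a window, and TTTGAA stood in 1 of them (3.45%), while CCAAT stood in 17 (58.6%). Windows with the pair are shown for the kinase PLK1, the cyclin CCNB2, the proliferation marker MKI67, the APC/C activator CDC20, the passenger protein INCENP and the exchange factor ECT2, because their responses below differ in size. KIF20A, a mitotic kinesin, is shown as a window with CCAAT and no TTTGAA, which holds the variant TTTAAA. That variant stood in the windows of 11 of the 33 members (33.3%), against 14.5% of all genes with a window. Each run gives the 120 bases before the start site, 5′ to 3′ on the gene's strand, with CCAAT (or ATTGG) and TTTGAA (or TTCAAA) in capitals. The windows are chr16:23678769-23678888 (plus strand), chr15:59105026-59105145 (plus), chr10:128126424-128126543 (minus), chr1:43358861-43358980 (plus), chr11:62123891-62124010 (plus), chr3:172750606-172750725 (plus, the first of its 2 windows) and chr5:138178992-138179111 (plus).
PLK1: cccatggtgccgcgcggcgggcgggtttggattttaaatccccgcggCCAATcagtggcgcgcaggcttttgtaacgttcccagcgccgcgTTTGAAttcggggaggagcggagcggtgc
CCNB2: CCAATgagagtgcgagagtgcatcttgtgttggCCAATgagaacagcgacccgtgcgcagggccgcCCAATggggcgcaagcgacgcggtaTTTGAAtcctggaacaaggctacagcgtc
MKI67: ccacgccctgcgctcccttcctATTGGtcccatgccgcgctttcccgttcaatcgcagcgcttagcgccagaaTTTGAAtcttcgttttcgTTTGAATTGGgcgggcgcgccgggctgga
CDC20: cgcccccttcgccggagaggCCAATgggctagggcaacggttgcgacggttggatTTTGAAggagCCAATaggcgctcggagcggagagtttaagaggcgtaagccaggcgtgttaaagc
INCENP: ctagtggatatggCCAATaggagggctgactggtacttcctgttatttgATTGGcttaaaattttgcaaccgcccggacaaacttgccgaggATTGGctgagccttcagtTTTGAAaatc
ECT2: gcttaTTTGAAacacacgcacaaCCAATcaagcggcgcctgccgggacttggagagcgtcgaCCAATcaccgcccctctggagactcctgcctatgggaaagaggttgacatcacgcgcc
KIF20A: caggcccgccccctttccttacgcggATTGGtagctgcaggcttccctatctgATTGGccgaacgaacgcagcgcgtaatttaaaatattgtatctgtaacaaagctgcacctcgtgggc

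In the members' windows the matches to TTTGAA began at a median of -29 bases from the start site, with quartiles at -89 and -12 (39 matches). Over all windows of the table the median was -125, with quartiles at -191 and -43 (6238 matches). CCAAT matches began at a median of -78 bases in the members (64 matches), against -96 over all windows (17602 matches). In the runs of PLK1, CCNB2 and INCENP the TTTGAA lies downstream of every CCAAT. In the MKI67 run the TTTGAA nearer the gene overlaps a CCAAT on the other strand. In the CDC20 run the TTTGAA lies between a pair of CCAAT boxes, and in the ECT2 run it lies upstream of them. Outside the printed runs, the CDC20 window holds another TTTGAA at -178, upstream of its CCAAT boxes. The ECT2 window holds another at 35 bases after the start, downstream of its CCAAT boxes.

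**Figure D1:**
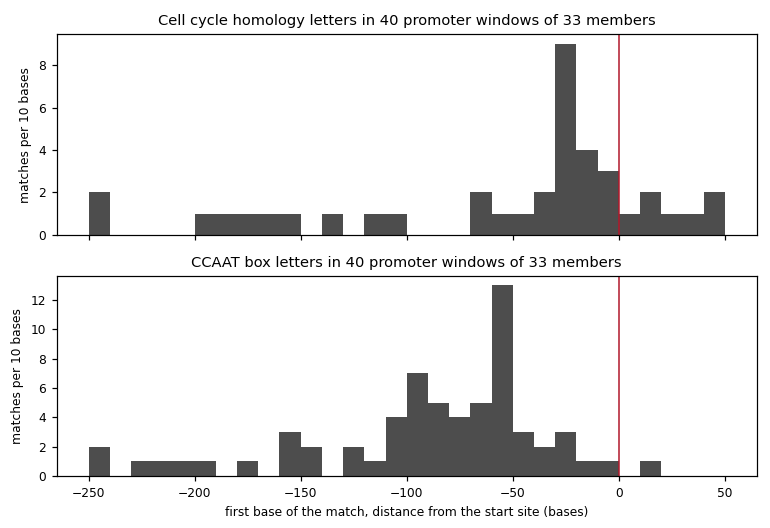
Distance from the start site (bases, x axis) of the first base of each TTTGAA match (top, 39 matches) and each CCAAT match (bottom, 64 matches) in the 40 promoter windows of 33 members, counted per 10 bases (y axis); the line marks the start site. TTTGAA matches gather in the last bases before the start (median -29), and CCAAT matches further upstream (median -78). Sites in overlapping windows of a gene are counted once per window.

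The libraries held 23.6 to 49.6 M reads, and the listed genes took 54.6 to 64.2% of them. All 40 members passed the filter (CPM of at least 1 in at least 2 libraries) that left 15485 genes for testing. Epithelial markers summed to 2777 to 8319 CPM over the libraries, with 6 of 6 listed. Alveolar markers summed to 0.57 to 30.5 CPM, nearly all of it the surfactant gene SFTPB where high, with SFTPC at 0.15 CPM or less. Of the leukocyte markers 1 of 4 was listed, the monocyte gene CD14 at up to 7.22 CPM. Fibroblast markers summed to 5.36 to 18.9 CPM and endothelial markers to 4.75 to 38.2 CPM. Each of these sums was nearly all 1 gene where high. COL1A1 reached 18.4 CPM, with COL1A2 at most 0.16 and PDGFRB at most 1.29 CPM. CDH5 reached 37.2 CPM, with VWF at most 2.86 and KDR at most 0.24 CPM. No pair of libraries was as alike as repeat counting would make it. The chi-square divided by the number of genes was 4.08 for the GR2 vehicle pair and 22.3 to 96.8 for the other pairs. In bulk RNA, fewer dividing cells and less RNA per cell cannot be told apart.

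The libraries of several pairs differed widely in the mitotic genes. Their median level, on the log2(CPM + 1) scale, was 3.22 and 4.95 in the 2 WZ4002-treated parental libraries, 4.92 and 3.21 in the WZ4002-treated GR2 libraries, and 5.70 and 4.15 in the WZ4002-treated GR3 libraries. In each of these pairs at least 39 of 40 members were higher in the same library, and the summed CPM of the members differed 3.02-fold, 2.97-fold and 3.26-fold. The vehicle-treated GR3 pair differed by 2.09-fold, with medians of 6.70 and 5.56 and all 40 members higher in replicate 1. DNA replication genes moved the same way in these 4 pairs, by a median of 0.51 to 0.57 on the log2 scale in the WZ4002 pairs and by 1.40 in the GR3 vehicle pair, where the members' median gap was 1.10, whereas APC/C subunit genes moved by at most 0.10. Vehicle-treated GR2, vehicle-treated gefitinib-tolerant and WZ4002-treated WZ4002-tolerant pairs differed by at most 1.06-fold in summed CPM. The median over all genes differed by at most 0.03 in any pair. The library with the higher mitotic level had 48.2 M reads against 32.7 M in the parental WZ4002 pair, 46.2 M against 38.8 M in the GR3 WZ4002 pair, 42.8 M against 39.4 M in the GR3 vehicle pair and 28.2 M against 35.7 M in the GR2 WZ4002 pair. It was thus the deeper library in 3 of these 4 pairs. Among pairs with smaller gaps, the higher library had 23.6 M against 36.8 M reads in gefitinib-treated and 36.1 M against 36.7 M in vehicle-treated parental cells. It had 32.3 M against 39.6 M in gefitinib-treated gefitinib-tolerant and 36.2 M against 31.1 M in vehicle-treated WZ4002-tolerant cells. The part of depth in the gaps was not tested. The part of these gaps in the comparisons below is given by leaving the libraries out.

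**Figure D2:**
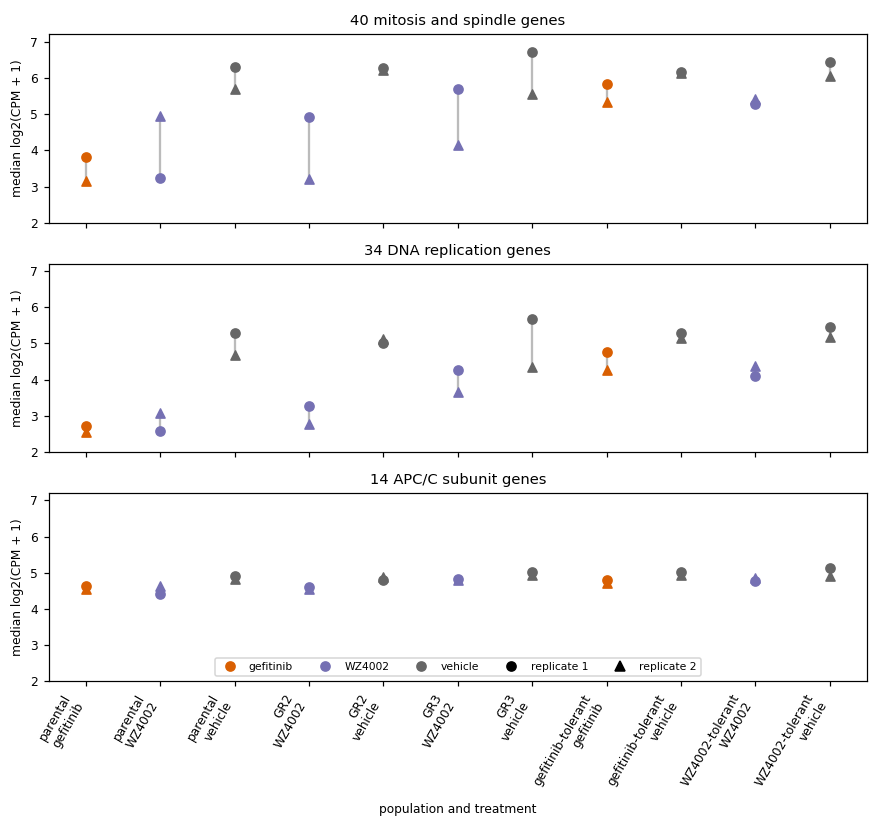
Median log2(CPM + 1) in each library (y axis) of the 40 mitosis and spindle genes (top), 34 DNA replication genes (middle) and 14 APC/C subunit genes (bottom), by population and treatment (x axis); colours mark the treatment, circles replicate 1, triangles replicate 2, and grey lines join the libraries of a group. Mitotic medians fall to 3.16 in gefitinib-treated parental cells and reach 6.70 in vehicle-treated GR3 cells, with wide gaps inside the WZ4002 pairs of parental, GR2 and GR3 cells, while APC/C medians stay between 4.43 and 5.14.

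In parental cells gefitinib lowered every member. All 40 fell, with a median log2 difference of -2.41 on the log2(CPM + 1) scale (range -3.27 to -0.70), and in all 40 both gefitinib libraries lay below both vehicle libraries, as they did in 35.8% of all genes tested. Of all 15485 genes tested, 21.8% fell in this comparison, and their median log2 difference was 0.04. Tests were made with limma on log2(CPM + 1), with p-values adjusted over all genes tested by the Benjamini-Hochberg method and a threshold of 0.05. Errors beside log2 differences are standard errors of the fit, with 2 libraries a group. The count stayed between 28 and 40 when any 1 library was left out.

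Among the entry kinases and cyclins all 8 members fell. CDK1, the kinase that drives mitotic entry, had 9.35 and 5.49 CPM in gefitinib-treated cells, against 94.96 and 64.3 CPM in vehicle-treated cells. The groups were far apart, and the log2 difference of -3.27 ± 0.65 (SE, adjusted p = 0.000922) was the lowest of the 40. CCNA2, the S and G2 cyclin, had 14.98 and 8.13 CPM under gefitinib and 117 and 73.3 CPM under vehicle, a difference of -2.95 ± 0.67 (adjusted p = 0.00236). CCNB1, which activates CDK1, had 40.02 and 29.4 CPM under gefitinib and 210.0 and 145 CPM under vehicle (-2.31 ± 0.58, adjusted p = 0.00426). Its relative CCNB2 had one of the 3 smallest changes of the 40, with 12.02 and 8.76 CPM under gefitinib against 47.7 and 31.3 CPM under vehicle (-1.81 ± 0.50, adjusted p = 0.00761). PLK1, which promotes entry and spindle assembly, had 21.5 and 14.8 CPM under gefitinib and 140.3 and 89.95 CPM under vehicle (-2.59 ± 0.60, adjusted p = 0.00264). AURKA, the centrosome kinase that activates PLK1, had 14.5 and 11.1 CPM under gefitinib and 87.3 and 61.3 CPM under vehicle (-2.44 ± 0.56, adjusted p = 0.00246). The transcription factor FOXM1 itself had 15.5 and 14.1 CPM under gefitinib and 91.9 and 78.4 CPM under vehicle (-2.44 ± 0.42, adjusted p = 0.000302). CDC25C, the phosphatase that releases CDK1 from inhibition, differed by -1.98 ± 0.64 (adjusted p = 0.0201).

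Spindle checkpoint genes included the smallest change of the 40. BUB3, the WD-repeat scaffold that brings BUB1 and BUBR1 to kinetochores, had 55.9 and 56.5 CPM in gefitinib-treated cells and 98.3 and 86.1 CPM in vehicle-treated cells, so its libraries did not overlap although the difference was only -0.70 ± 0.13 (adjusted p = 0.000541). Its partners fell much further. BUB1 had 13.1 and 7.48 CPM under gefitinib and 77.5 and 51.3 CPM under vehicle (-2.55 ± 0.65, adjusted p = 0.00481), and BUB1B, which encodes BUBR1, differed by -2.87 ± 0.65 (adjusted p = 0.00227). MAD2L1, the checkpoint protein that captures CDC20, had 3.05 and 2.45 CPM under gefitinib and 26.6 and 20.6 CPM under vehicle (-2.71 ± 0.41, adjusted p = 0.000121). The checkpoint kinase TTK differed by -2.37 ± 0.61 (adjusted p = 0.00519).

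All 6 kinetochore genes fell, within a narrow range of -2.61 to -2.24. NDC80 and NUF2, subunits of the microtubule-binding complex, differed by -2.61 and -2.25, and SPC25 of the same complex by -2.40. CENPA, the centromeric histone, differed by -2.35 and the kinetochore protein CENPF by -2.24. The motor CENPE had 12.9 and 6.91 CPM under gefitinib, against 61.6 and 40.8 CPM under vehicle (-2.28 ± 0.65, adjusted p = 0.00989). The chromosomal passenger complex, which corrects faulty attachments, fell with all 3 members. Its kinase AURKB had 4.32 and 2.91 CPM under gefitinib and 29.98 and 17.8 CPM under vehicle (-2.40 ± 0.53, adjusted p = 0.00182). BIRC5 (survivin) had 5.03 and 3.67 CPM under gefitinib and 24.8 and 19.3 CPM under vehicle (-2.11 ± 0.54, adjusted p = 0.0052). INCENP, the scaffold, had 19.7 and 20.2 CPM under gefitinib and 92.3 and 69.5 CPM under vehicle (-1.96 ± 0.43, adjusted p = 0.00177).

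The 9 motor and spindle assembly genes all fell, with log2 differences of -2.89 to -1.96. TPX2, which activates AURKA on the spindle, had 25.7 and 15.6 CPM under gefitinib and 196 and 123 CPM under vehicle (-2.89 ± 0.67, adjusted p = 0.00266), the third largest change of the 40. The kinesins KIF11 (spindle bipolarity), KIF23 (the central spindle), KIF2C (a microtubule depolymerase) and KIF4A (chromosome arms) differed by -2.52, -2.55, -2.24 and -2.25. KIF20A, a kinesin of late mitosis, had 16.1 and 6.06 CPM under gefitinib and 78.2 and 36.1 CPM under vehicle (-2.30 ± 0.79, adjusted p = 0.0264). Its SE was the largest of the 40. The spindle protein HMMR, the kinetochore-fibre protein DLGAP5 and the centrosome kinase NEK2 differed by -1.96, -2.42 and -2.53.

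Of the anaphase genes all 4 fell. CDC20, the APC/C activator, had 19.2 and 13.9 CPM under gefitinib and 116 and 74.3 CPM under vehicle (-2.44 ± 0.60, adjusted p = 0.00391). UBE2C, the ubiquitin-conjugating enzyme of the APC/C, had 12.99 and 10.6 CPM under gefitinib and 73.5 and 50.8 CPM under vehicle (-2.28 ± 0.54, adjusted p = 0.0032). ESPL1 (separase) and PTTG1 (securin, its inhibitor) differed by -2.85 and -2.003. Among the 3 cytokinesis genes, ANLN and PRC1 differed by -2.82 and -2.53. ECT2, the exchange factor that activates RhoA at the cleavage furrow, had 49.7 and 53.3 CPM under gefitinib and 183 and 146 CPM under vehicle (-1.65 ± 0.32, adjusted p = 0.000745), the smallest change after BUB3. TOP2A, which untangles sister chromatids, had 54.3 and 29.4 CPM under gefitinib and 325 and 212 CPM under vehicle (-2.68 ± 0.70, adjusted p = 0.00573). MKI67, the Ki-67 marker, had 30.7 and 20.8 CPM under gefitinib and 200.4 and 138 CPM under vehicle (-2.67 ± 0.66, adjusted p = 0.00393).

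**Figure D3:**
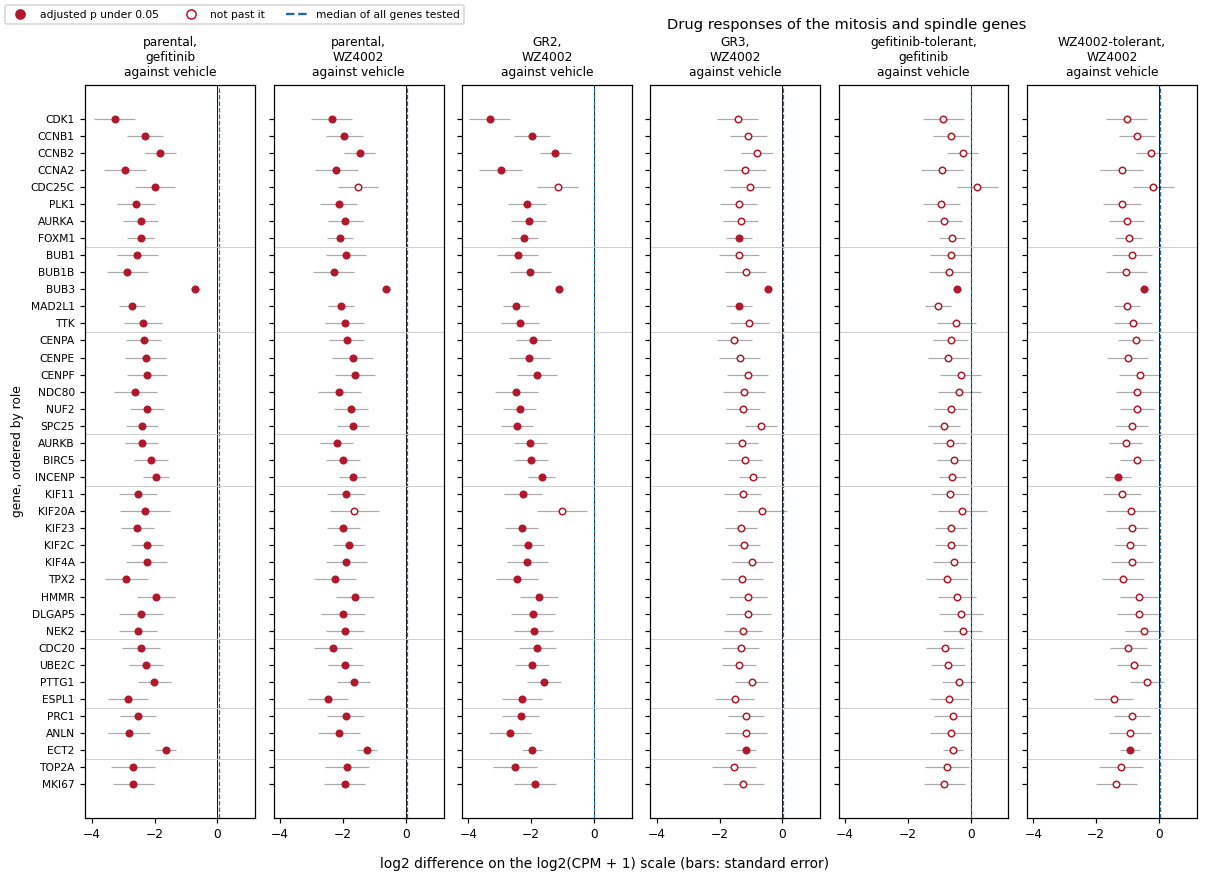
Log2 difference between drug and vehicle (x axis, log2(CPM + 1) scale, bars: standard error) of the 40 members, ordered by role (y axis), in 6 comparisons; filled points passed an adjusted p of 0.05, open points did not, and the dashed line is the median of all 15485 genes tested. Filled points number 40, 38 and 38 in parental cells under gefitinib, parental cells under WZ4002 and GR2 cells, and 4, 1 and 3 in GR3, gefitinib-tolerant and WZ4002-tolerant cells; BUB3 lies nearest 0 in the parental panels.

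WZ4002 lowered 38 of the 40 members in parental cells, with a median log2 difference of -1.92 (range -2.47 to -0.62), where 22.3% of all genes tested fell. The 2 that did not pass were CDC25C (-1.52 ± 0.64, adjusted p = 0.063) and KIF20A (-1.64 ± 0.79, adjusted p = 0.0987). CDK1 had 6.58 and 30.4 CPM in WZ4002-treated cells, against 94.96 and 64.3 CPM in vehicle-treated cells (-2.36 ± 0.65, adjusted p = 0.00777). MKI67 had 20.3 and 88.5 CPM under WZ4002 and 200.4 and 138 CPM under vehicle (-1.94 ± 0.66, adjusted p = 0.0237). In both genes the second WZ4002 library stood well above the first and still below both vehicle libraries. Both WZ4002 libraries lay below both vehicle libraries in 39 of 40 members, against 34.1% of all genes tested (KIF20A, at 7.13 and 36.4 CPM under WZ4002 and 78.2 and 36.1 CPM under vehicle, overlapped). ESPL1 had the largest change, -2.47 ± 0.63 (adjusted p = 0.00464), and BUB3 the smallest, with 62.8 and 56.7 CPM under WZ4002 and 98.3 and 86.1 CPM under vehicle (-0.62 ± 0.13, adjusted p = 0.0013). The count rested on single libraries and on the shared estimate of spread. It was 26 when only the 4 libraries compared were fitted (4978 of 15485 genes tested passed in either direction) and 34 with no filter on low values (7523 of 17165). It was 3 without the first WZ4002 library, where the median log2 difference was -1.10, and 6 without the first vehicle library, where it was -1.66.

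Set against each other in parental cells, WZ4002 and gefitinib gave no call among the members or among all genes tested (0%, and 525 genes at an unadjusted p under 0.05, of which 0 were members). All 40 differences, WZ4002 minus gefitinib, lay above 0, with a median of 0.48 and a range of 0.08 to 0.91. That direction rested on 1 library, since the median was -0.31 without the second WZ4002 library and 1.32 without the first. The intervals were wide. For CDK1 the difference was 0.91 with a 95% interval of -0.47 to 2.29, and for PLK1 it was 0.45 with one of -0.82 to 1.72, so the inhibitors were not shown to act alike on these genes. The narrowest interval belonged to BUB3, 0.08 with -0.19 to 0.36.

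GR2 cells responded to WZ4002 with a fall of 38 of 40 members, at a median log2 difference of -2.07 (range -3.31 to -1.02), where 28.3% of all genes tested fell. CDK1 had 28.5 and 6.07 CPM in WZ4002-treated GR2 cells, against 144 and 141 CPM in vehicle-treated GR2 cells (-3.31 ± 0.65, adjusted p = 0.000503). CCNA2 had 33.9 and 7.64 CPM under WZ4002 and 139 and 133 CPM under vehicle (-2.98 ± 0.67, adjusted p = 0.00149). The vehicle libraries were nearly level, and the 2 WZ4002 libraries differed several-fold. Both vehicle libraries stand among the last deposited columns, apart from both WZ4002 libraries. The response and its scatter cannot be told apart from any effect of that order. BUB3 had 59.01 and 47.8 CPM under WZ4002 and 118 and 113 CPM under vehicle (-1.10 ± 0.13, adjusted p = 4.62e-06), and the difference from the parental response to WZ4002 was -0.49 ± 0.18 (adjusted p = 0.129), which did not pass. ECT2 had 51.4 and 35.5 CPM under WZ4002 and 178 and 166 CPM under vehicle (-1.98 ± 0.32, adjusted p = 9e-05). CDC25C (-1.16 ± 0.64, adjusted p = 0.138) and KIF20A (-1.02 ± 0.79, adjusted p = 0.29) did not pass, and KIF20A, at 38.8 and 8.23 CPM under WZ4002 and 37.5 and 37.99 CPM under vehicle, was the 1 member whose groups overlapped. The other 39 did not overlap, against 41.9% of all genes tested. Without the second WZ4002 library 9 members fell, at a median of -1.35.

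GR3 cells gave a smaller count under the same inhibitor. WZ4002 lowered 4 of 40 members, where 9.87% of all genes tested fell, and 19 members had an unadjusted p under 0.05. The median log2 difference was -1.22 (range -1.54 to -0.46), and all 40 differences were below 0. The 4 were FOXM1 (-1.38 ± 0.42, adjusted p = 0.0284), MAD2L1 (-1.39 ± 0.41, adjusted p = 0.025), ECT2 (-1.17 ± 0.32, adjusted p = 0.0166) and BUB3 (-0.46 ± 0.13, adjusted p = 0.0194). FOXM1 had 57.5 and 23.5 CPM under WZ4002 and 119.7 and 79.1 CPM under vehicle, and BUB3 had 87.4 and 79.9 CPM under WZ4002 and 123 and 108 CPM under vehicle. In both, the libraries of the groups did not overlap. CDK1 had 51.8 and 18.7 CPM under WZ4002 and 130.2 and 55.6 CPM under vehicle (-1.42 ± 0.65, adjusted p = 0.129), so that the higher WZ4002 library nearly reached the lower vehicle library. KIF20A had 85.6 and 18.9 CPM under WZ4002 and 114 and 36.3 CPM under vehicle, and MKI67 160.5 and 37.3 CPM under WZ4002 and 250.1 and 137 CPM under vehicle. In these 2 genes the groups overlapped, as in 31 of the 40 members. Both WZ4002 libraries lay below both vehicle libraries in the other 9, against 25.6% of all genes tested. The count was 28 without the first WZ4002 library (median -2.07), 10 without the second vehicle library (median -1.75), 0 without the second WZ4002 library (median -0.39) and 0 without the first vehicle library (median -0.69).

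In gefitinib-tolerant cells under gefitinib, 1 of 40 members fell, where 13.6% of all genes tested fell. The median log2 difference was -0.64 (range -1.04 to 0.21). That member was BUB3, with 68.05 and 66.1 CPM under gefitinib and 92.3 and 89.4 CPM under vehicle (-0.43 ± 0.13, adjusted p = 0.0216). MAD2L1 had 19.1 and 13.9 CPM under gefitinib and 37.3 and 31.9 CPM under vehicle (-1.04 ± 0.41, adjusted p = 0.071), the only other member with an unadjusted p under 0.05. CDK1 had 77.03 and 50.2 CPM under gefitinib and 117 and 114 CPM under vehicle, a difference of -0.88 with a 95% interval of -2.26 to 0.51. PLK1 had 74.00 and 46.3 CPM under gefitinib and 116 and 109.8 CPM under vehicle (-0.94, interval -2.20 to 0.33), and MKI67 163 and 100.2 CPM under gefitinib and 223 and 235 CPM under vehicle. In each of these genes the gefitinib libraries were the lower ones, and this held for 35 of the 40 members, against 34.7% of all genes tested. The 5 exceptions were CCNB2, CDC25C, CENPF, DLGAP5 and NEK2. CDC25C had 12.8 and 9.22 CPM under gefitinib and 7.56 and 11.3 CPM under vehicle, the 1 member with a difference above 0 (0.21, interval -1.15 to 1.58). No member passed when any 1 of the 4 libraries was left out.

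WZ4002-tolerant cells under WZ4002 gave 3 falls, where 15.6% of all genes tested fell, with a median log2 difference of -0.88 (range -1.44 to -0.18). INCENP had 36.9 and 33.7 CPM under WZ4002 and 103 and 76.6 CPM under vehicle (-1.31 ± 0.43, adjusted p = 0.0285). ECT2 had 90.05 and 84.5 CPM under WZ4002 and 204 and 138 CPM under vehicle (-0.94 ± 0.32, adjusted p = 0.0353). BUB3 had 61.8 and 75.5 CPM under WZ4002 and 102 and 88.4 CPM under vehicle (-0.47 ± 0.13, adjusted p = 0.0137). Both WZ4002 libraries lay below both vehicle libraries in 39 of 40 members, against 33.2% of all genes tested, the exception being CCNB2 at 25.9 and 28.2 CPM under WZ4002 and 37.1 and 28.1 CPM under vehicle. CDK1 had 60.5 and 65.2 CPM under WZ4002 and 147 and 114 CPM under vehicle (-1.03 ± 0.65, adjusted p = 0.235), and ESPL1 13.4 and 12.7 CPM under WZ4002 and 41.5 and 33.3 CPM under vehicle (-1.44 ± 0.63, adjusted p = 0.0892). The fit shares 1 estimate of the spread over all 11 groups, and the median gap between paired libraries, over the members, was -0.09 and 0.38 in these 2 groups against 1.10 in vehicle-treated GR3 cells. When only the 4 WZ4002-tolerant libraries were fitted, 35 members fell, where 4664 of 15485 genes tested passed in either direction. When only the 4 gefitinib-tolerant libraries were fitted, 14 members fell under gefitinib, where 3240 genes passed. In the fit of all groups the WZ4002-tolerant count was 0 without the first WZ4002 or the first vehicle library, 1 without the second WZ4002 library and 3 without the second vehicle library.

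Tolerant and parental cells were also compared under the same inhibitor. Under gefitinib, 35 of 40 members were higher in gefitinib-tolerant than in parental cells, where 16.3% of all genes tested were higher, with a median log2 difference of 1.96. CDK1 had 77.03 and 50.2 CPM in gefitinib-tolerant cells, against 9.35 and 5.49 CPM in parental cells (2.95 ± 0.65, adjusted p = 0.00303), and its libraries were far apart. ANLN, the actin-binding protein of the cleavage furrow, had 234 and 163 CPM in tolerant and 32.5 and 20.6 CPM in parental cells (2.86 ± 0.67, adjusted p = 0.00466). SPC25 had 8.02 and 5.07 CPM in tolerant and 0.76 and 0.35 CPM in parental cells (2.26 ± 0.51, adjusted p = 0.00342), and TOP2A 219 and 162 CPM in tolerant and 54.3 and 29.4 CPM in parental cells (2.21 ± 0.70, adjusted p = 0.025). The 5 that did not pass were BUB3 (0.25), CCNB2 (1.27), CDC25C (1.57), KIF20A (1.97) and HMMR (1.62). The count was 4 without the first tolerant library, 6 without the second parental library, 19 without the first parental library and 25 without the second tolerant library, with medians of 1.66 to 2.21.

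Under WZ4002, 8 of 40 members were higher in WZ4002-tolerant than in parental cells, where 17.6% of all genes tested were higher, with a median of 1.23. A count of 8 lies near that share and does not set the members apart. The 8 were CDK1, FOXM1, MAD2L1, SPC25, BIRC5, KIF23, UBE2C and ANLN. CDK1 had 60.5 and 65.2 CPM in WZ4002-tolerant cells and 6.58 and 30.4 CPM in parental cells (2.05 ± 0.65, adjusted p = 0.0224). FOXM1 had 46.8 and 42.2 CPM in tolerant and 12.2 and 29.5 CPM in parental cells (1.18 ± 0.42, adjusted p = 0.0384). The count was 31 without the second parental library (median 2.10) and 0 without the first (median 0.40). It was 0 without the second tolerant library (median 1.18) and 2 without the first (median 1.30). In GR3 cells under WZ4002, 1 member was higher than in parental cells, where 14.3% of all genes tested were higher. It was BUB3, with 87.4 and 79.9 CPM in GR3 and 62.8 and 56.7 CPM in parental cells (0.48 ± 0.13, adjusted p = 0.0114). The median over the members was 0.76, and it was 1.57 without the second parental library (6 members) and -0.03 without the first. It was 1.58 without the second GR3 library (7 members) and -0.13 without the first (0 members). GR2 cells under WZ4002 gave no call against parental cells (5.66% of all genes tested, 1 member at an unadjusted p under 0.05, median 0.02).

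**Figure D4:**
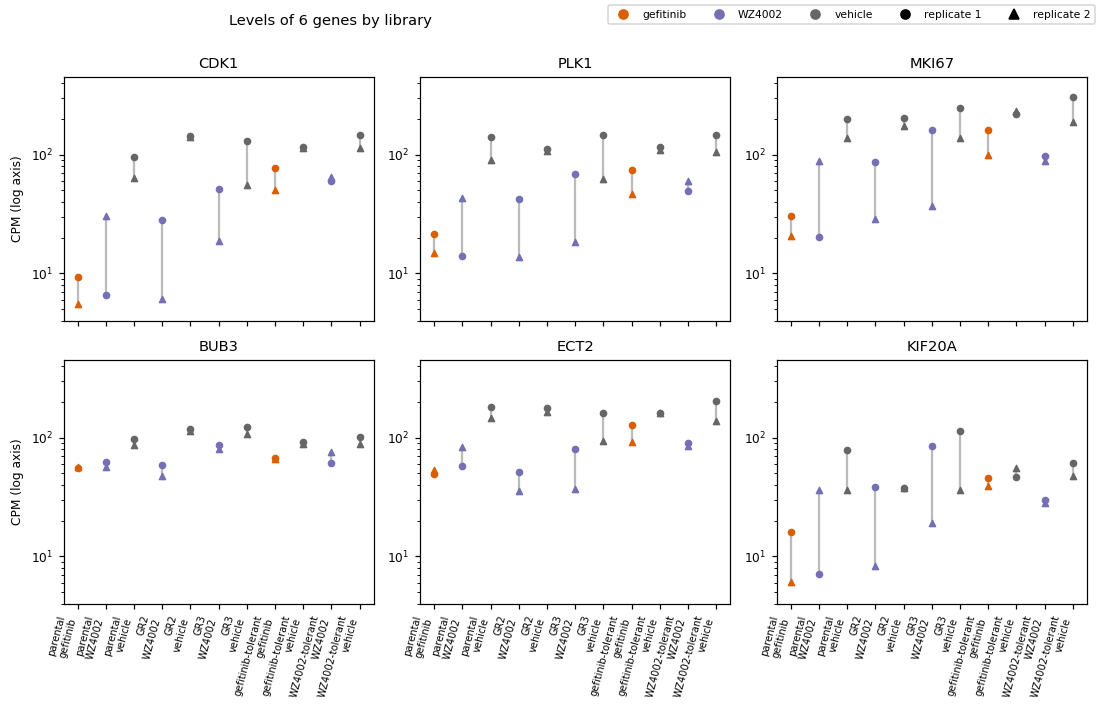
CPM (y axis, log axis) of CDK1, PLK1, MKI67, BUB3, ECT2 and KIF20A in each of 22 libraries, by population and treatment (x axis); colours mark the treatment, circles replicate 1, triangles replicate 2, and grey lines join the libraries of a group. CDK1 ranges from 5.49 to 147 CPM, whereas BUB3 stays between 47.8 and 123 CPM, and the libraries of a KIF20A pair lie far apart in several groups.

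Without drug no difference between populations passed in these genes. Against parental cells under vehicle no member passed in GR2, GR3, gefitinib-tolerant or WZ4002-tolerant cells, where 16.7%, 20.8%, 19% and 18.4% of all genes tested differed in either direction. The medians over the members were 0.23, 0.07, 0.11 and 0.18, and 1, 1, 0 and 0 members had an unadjusted p under 0.05. Without the second parental vehicle library these medians were -0.07, -0.28, -0.17 and -0.10. GR3 against GR2 under vehicle gave none either, where 33.1% of all genes tested differed (median -0.20, 0 members at an unadjusted p under 0.05). BUB3 came nearest, with 118 and 113 CPM in GR2 and 123 and 108 CPM in GR3, against 98.3 and 86.1 CPM in parental cells, a difference of 0.32 ± 0.13 (adjusted p = 0.1002) in GR2 and 0.32 ± 0.13 (adjusted p = 0.0907) in GR3. CDK1 had 144 and 141 CPM in GR2 and 94.96 and 64.3 CPM in parental cells, and its difference of 0.86 had a 95% interval of -0.52 to 2.24. Intervals of this width leave room for sizeable differences in either direction.

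Whether the responses themselves differed was tested as a difference of differences. The gefitinib response of gefitinib-tolerant minus parental cells had a median of 1.79 over the members, 0 of 40 passed (2% of all genes tested did, in either direction), and 24 had an unadjusted p under 0.05. FOXM1 was lowest in p, with a difference of 1.84 ± 0.59 (adjusted p = 0.127), and CDK1 had the largest, 2.39 with a 95% interval of 0.44 to 4.35 (adjusted p = 0.213). Fitted on their 8 libraries alone, 34 members passed, where 690 of 15485 genes tested did. The WZ4002 responses of WZ4002-tolerant, GR3 and GR2 minus parental cells had medians of 1.05, 0.71 and -0.17. Without the first parental WZ4002 library these were 0.25, -0.07 and -0.95, and without the second they were 1.93, 1.51 and 0.57. In these, 0 members passed, against 4.49%, 1.29% and 6.79% of all genes tested, and 0, 0 and 1 members had an unadjusted p under 0.05. The WZ4002 response of GR3 minus that of GR2 had a median of 0.84, and 1 member passed, where 6.78% of all genes tested were higher. This was BUB3, whose log2 difference was -0.46 in GR3 and -1.10 in GR2, a difference of 0.64 ± 0.18 (adjusted p = 0.0297). No member passed without the second GR2 WZ4002 library, either GR2 vehicle library, the first GR3 WZ4002 library or the second GR3 vehicle library.

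The members moved together. Over the 22 libraries each member was compared with the median of the other 39, which share libraries and treatments, so the values are descriptive. Pearson's r was 0.960 to 0.998 for 36 members, highest for BUB1 (0.998), and lower for KIF20A (0.917), ECT2 (0.901), CDC25C (0.881) and BUB3 (0.806). CPM are not scaled by gene length, so only the change of a gene's distance from the members' median is meaningful, not the distance itself. By this measure BUB3 lay 2.35 above it on the log2 scale in gefitinib-treated parental cells and 0.54 above it in vehicle-treated parental cells. ECT2 lay 2.22 above in gefitinib-treated and 1.36 above in vehicle-treated parental cells, but 1.39 above in WZ4002-treated and 1.18 above in vehicle-treated GR2 cells. CDK1 went the other way, at -0.45 in gefitinib-treated and 0.31 in vehicle-treated parental cells. BUB1 and PRC1 kept their place within 0.25 over the 11 groups. BUB3 also had the smallest SE in the fit, 0.13, against a median of 0.599 over the members and 0.186 over all genes tested.

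**Figure D5:**
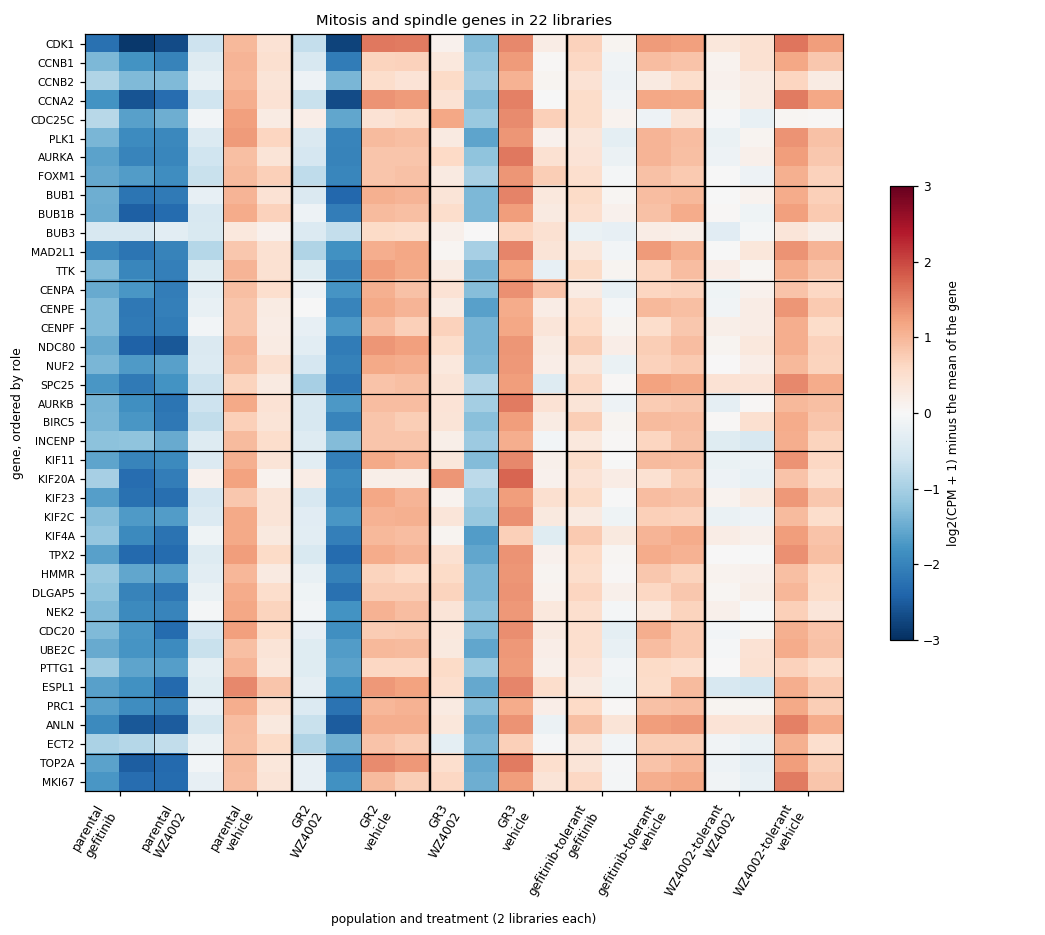
Level of each of the 40 members (y axis, ordered by role, lines between roles) in the 22 libraries (x axis, 2 per population and treatment), as log2(CPM + 1) minus the mean of the gene over all libraries; blue is below and red above that mean. Columns are nearly uniform in colour, the darkest blue ones are gefitinib-treated parental replicate 2, WZ4002-treated parental replicate 1 and WZ4002-treated GR2 replicate 2, and BUB3 is the palest row.

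Other genes of division followed the members to different degrees. All 55 of 55 further mitosis genes fell in gefitinib-treated parental cells (median -2.42), 53 in WZ4002-treated parental cells and 53 in GR2 cells. Of all genes tested 21.8%, 22.3% and 28.3% fell there. Under drug 7 fell in GR3, 2 in gefitinib-tolerant and 4 in WZ4002-tolerant cells, against 9.87%, 13.6% and 15.6% of all genes tested. These last 3 counts lie near or below those shares. Of 34 DNA replication genes, 33, 33, 32, 13, 14 and 24 fell in gefitinib-treated parental, WZ4002-treated parental, GR2, GR3, gefitinib-tolerant and WZ4002-tolerant cells, beside the same shares. Their medians in the tolerant cells were -0.92 under gefitinib and -1.13 under WZ4002, beside -0.64 and -0.88 for the members. Of these 34, 31 and 26 were higher in tolerant than in parental cells under gefitinib and under WZ4002, against 16.3% and 17.6% of all genes tested. The median SE of the replication genes was 0.362 against 0.599 for the members.

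Of 13 APC/C subunits tested, 2 fell and 2 rose in gefitinib-treated parental cells (median -0.21), where 21.8% of all genes tested fell and 23.5% rose. ANAPC7 had 15.4 and 17.9 CPM under gefitinib and 36.5 and 37.1 CPM under vehicle (-1.10 ± 0.17, adjusted p = 0.000121), ANAPC1 differed by -0.98, and ANAPC2 and ANAPC16 rose by 0.55 and 0.35. Of 10 cohesin genes 3 fell and 3 rose. Counts of this size lie near those shares and set neither list apart from other genes. The ring subunits SMC1A, SMC3 and RAD21 differed by -1.16, -0.88 and -0.57, and the regulator PDS5B and the loaders NIPBL and MAU2 rose by 1.02, 0.40 and 0.55. PDS5B had 116 and 112 CPM under gefitinib and 53.3 and 58.7 CPM under vehicle, with no overlap.

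Of 16 genes tested for the DREAM complex and for CDK inhibitors, 7 fell and 2 rose in gefitinib-treated parental cells, where 21.8% and 23.5% of all genes tested did. RBL2, the p130 pocket protein of the repressor in resting cells, had 85.7 and 83.4 CPM under gefitinib and 50.1 and 50.9 CPM under vehicle (0.73 ± 0.16, adjusted p = 0.00179). The CDK inhibitor gene CDKN1B (p27) had 50.1 and 46.5 CPM under gefitinib and 36.8 and 34.9 CPM under vehicle (0.42 ± 0.13, adjusted p = 0.0138). Both rose in each of the other drug responses too, RBL2 by 0.49 to 0.76 and CDKN1B by 0.38 to 0.83. In gefitinib-tolerant cells CDKN1B had 42.5 and 43.00 CPM under gefitinib and 21.8 and 25.7 CPM under vehicle (0.83 ± 0.13, adjusted p = 0.000602). There 1 of 40 mitotic genes passed, and 39 of the 40 had differences below 0 (median -0.64). RBL1 (p107) differed by -1.23, E2F4 by -1.01, E2F5 by -1.13, TFDP1 by -0.84, and the MuvB genes LIN9, LIN52 and LIN54 by -1.84, -1.09 and -0.80. CDKN1A (p21) did not pass in parental cells under gefitinib (0.65 ± 0.39, adjusted p = 0.189) and fell in GR2 cells under WZ4002, to 2.24 and 1.48 CPM against 10.6 and 10.01 CPM under vehicle (-1.995 ± 0.39, adjusted p = 0.000471). CDKN2B had the largest rises of this list in the tolerant cells. In gefitinib-tolerant cells it had 146 and 221 CPM under gefitinib and 53.9 and 101 CPM under vehicle. In WZ4002-tolerant cells it had 208 and 188 CPM under WZ4002 and 40.3 and 81.3 CPM under vehicle. In GR2 cells it was lower under WZ4002, at 63.2 and 38.4 CPM against 124 and 117 CPM. CDKN1C had the largest rise in GR3 cells, to 8.38 and 4.48 CPM from 1.10 and 1.30 CPM.

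In gefitinib-treated parental cells the 24 members with TTTGAA had a median log2 difference of -2.48 and the 9 with a window but without it had -2.31, and all 33 fell. Of those 9, KIF2C, CENPE, CCNB1, KIF20A and PTTG1 held the variant TTTAAA. Among the other genes tested with a window, 26.3% of the 1443 with TTTGAA fell, 31% of the 587 with both TTTGAA and CCAAT, and 22.5% of all 10686. In gefitinib-tolerant cells under gefitinib these shares were 13.9%, 13.1% and 14.4%. The medians of these other genes were 0.01, -0.04 and 0.03, in the same order. There 0 of the 24 members with TTTGAA and 0 of the 9 without it fell, with medians of -0.64 and -0.64. BUB3, the 1 member that passed there, had no window. The members' median SE was 0.599, against 0.186 over all genes tested, so these counts do not show a smaller response than in other genes. KIF20A, whose window above holds CCAAT and the variant TTTAAA, and PLK1, whose window also holds TTTGAA, differed by -2.30 and -2.59 in gefitinib-treated parental cells.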

How the data were processed

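The authors deposited 1 table of CPM values (read counts scaled to a common library total) for 17165 genes in 22 libraries. Per the labels' protocols, polyadenylated RNA was made into directional libraries. Per the submitters' processing notes, STAR and HTSeq were used on build hg19; their versions, the strand setting and the gene annotation are not given in the sources used here, so overlapping and antisense genes may share reads. The CPM do not sum to a full library over the listed genes, and library totals were computed from the smallest CPM steps.

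Differences were tested with limma 3.58.1 (R 4.3.3, empirical Bayes with a trend) on log2(CPM + 1), as means of 11 groups, over 15485 genes with CPM of at least 1 in at least 2 libraries (1680 left out), with Benjamini-Hochberg adjustment in each of 21 comparisons and a threshold of 0.05. A log2(CPM + 1) difference understates the change of low genes. Simulated data with known changes served to check the code. Replicate numbers were not used to pair the groups in the main fit.

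The members and lists were chosen with earlier results of these data known. Named genes were all members by role, with values in every library for a fixed set of members and for the 3 largest and 3 smallest changes under gefitinib in parental cells; other members' library values were chosen after they were seen. Alternatives were another pseudocount, no filter, median-of-ratios scaling, a replicate block, fits of the compared groups alone, leaving out each library, and limma-voom on computed reads, added after the data were seen. Promoters came from RefSeq, matched by symbol.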

Additional observations from a re-analysis of the deposited data

Results flagged for a closer look

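BUB3, the checkpoint scaffold, is listed here because its response to WZ4002 differed between GR3 and GR2 cells by a test of the difference itself. The log2 difference of responses, GR3 minus GR2, was 0.6438 (limma, adjusted p = 0.0297), from -0.46 in GR3 and -1.10 in GR2, and both libraries under WZ4002 lay below both under vehicle in each line. It did not pass when only the 8 libraries of these groups were fitted.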

How the results depend on the processing

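The counts of members kept their side under a pseudocount of 0.1 and median-of-ratios scaling, which moved the median of all genes by at most -0.030. Fitting only the compared groups gave 26 falls in parental cells under WZ4002 (4978 of 15485 genes tested passed in either direction), where no filter gave 34. It gave 0 falls in GR3 under WZ4002, 14 in gefitinib-tolerant and 35 in WZ4002-tolerant cells. In these 693, 3240 and 4664 of 15485 genes passed. Under vehicle it gave 4 members in GR2, 1 in gefitinib-tolerant and 1 in WZ4002-tolerant cells against parental cells. There 4585, 2734 and 2773 of 15485 genes passed, a larger share than among the members. Under WZ4002 it gave 0 in GR3 and 4 in WZ4002-tolerant against parental cells (1724 and 2785 genes), where no filter gave 5. It gave 34 for the gefitinib response of gefitinib-tolerant minus parental cells (690 genes) and 0 for the WZ4002 response of GR3 minus GR2 (1698 genes). Limma-voom on computed reads gave 2 falls in gefitinib-tolerant cells, where 4380 of 15485 genes tested passed in either direction. The cause was not tested. Without single libraries the counts ranged from 28 to 40 in parental cells under gefitinib, 3 to 40 in parental cells under WZ4002, 9 to 39 in GR2, 0 to 28 in GR3, 0 to 0 in gefitinib-tolerant and 0 to 3 in WZ4002-tolerant cells. Against parental cells they ranged from 0 to 7 in GR3 and 0 to 31 in WZ4002-tolerant cells under WZ4002, 4 to 25 in gefitinib-tolerant cells under gefitinib, and 0 to 2 for the response of GR3 minus GR2. The lone library left is assumed to vary like the other groups. Leaving out libraries turned the sign of several medians given in the report. Among single named genes it turned 4 values that had not passed: KIF20A in GR2 (-2.07 to 0.03622), CDC25C in gefitinib-tolerant cells (-0.04697 to 0.4713, and -0.003426), and WZ4002 minus gefitinib in parental cells for CDK1 (-0.1127 to 1.936) and PLK1 (-0.3185 to 1.219). With the replicate number as a block, 40, 39 and 38 members fell in parental cells under gefitinib, parental cells under WZ4002 and GR2. Under drug, 38 and 10 were higher in gefitinib-tolerant and WZ4002-tolerant than in parental cells. In the same order, 7277, 7575, 8802, 5222 and 5999 of 15485 genes tested passed in either direction. Only 20 of 55 pairs of groups correlated above 0.1 (-0.46 to 0.63). At least 37 of 40 members were higher in replicate 1 in both GR3 pairs and in gefitinib- and vehicle-treated parental cells. The same held in WZ4002-treated GR2, gefitinib-treated gefitinib-tolerant and vehicle-treated WZ4002-tolerant cells. In WZ4002-treated parental cells 39 were higher in replicate 2. Whether replicate numbers mark a batch was not tested. In the order of the deposited columns, most replicate 1 libraries come first and most replicate 2 libraries next. WZ4002-treated parental and WZ4002-tolerant replicate 2 and both vehicle-treated GR2 libraries stand last, after both WZ4002-treated GR2 libraries. The labels do not say what this order means, and its part in the gaps was not tested. Any effect of it cannot be told apart from the GR2 response to WZ4002. The planned edgeR and DESeq2 fits were not run, because the deposited CPM could not be accepted as counts.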
